A study of Homo sapiens with 12 samples.

Results

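HMEC-1 cells given a miR-126 mimic were compared with HMEC-1 cells given a miR-143 mimic, so each microRNA served as the reference for the other. The members were 6 of the 12 RNA-seq libraries of the series, 3 for each mimic, chosen by column names of the deposited table that carry the mimic and a library number (2, 3 or 4). HMEC-1 is an established line derived from endothelium of small vessels in human skin, and all groups rest on this single line. Cells in both groups had received 50 nM of synthetic double-stranded RNA with a lipid reagent (Lipofectamine RNAiMAX) and were collected at 48 h. The other 6 libraries came from cells given non-targeting scrambled RNA at the same dose (3 libraries, used here as a reference level) or a miR-150 mimic (3 libraries, used only for the estimate of spread). Whether libraries of a group came from separate cultures is not stated in the labels, so the p-values cover the spread among these libraries alone, and that spread may be technical.

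MicroRNAs are short RNAs that guide an Argonaute protein to messenger RNAs, mainly through pairing of the seed, bases 2 to 8 of the microRNA, with the 3′ UTR, and paired messages are usually degraded or translated less. MiR-126 is abundant in endothelium and is known for tuning responses to VEGF and the upkeep of vessels; its gene lies in an intron of EGFL7. MiR-143 is best known from smooth muscle, where it is made together with miR-145 and acts on regulators of actin and of cell growth. A mimic adds copies of such an RNA to the cell, so in this design messages paired with miR-143 can be higher in the miR-126 group and the reverse.

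The mature sequences of the strands usually taken as the guides are given with the seed in capitals, since the target sites below are read against them; the labels do not say which strand the mimic was designed to deliver. Both are from RefSeq (GRCh38.p14), miR-126-3p at chr9:136670653-136670674 and miR-143-3p at chr5:149428978-149428998, each on the plus strand.
hsa-miR-126-3p: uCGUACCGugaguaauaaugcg
hsa-miR-143-3p: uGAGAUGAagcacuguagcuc
The corresponding 7-base match in a 3′ UTR is CGGTACG for miR-126-3p and TCATCTC for miR-143-3p, and an 8-base match adds an A opposite base 1. The 4 genes with an 8-base miR-143-3p match and the largest differences were TPM3, GXYLT1, KRT80 and PTBP3, and their sites are shown in 29 bases of the 3′ UTR with the match in capitals (GRCh38, minus strand in each case; chr1:154156781-154156809, chr12:42085731-42085759, chr12:52169929-52169957 and chr9:112222118-112222146).
TPM3: ccatgtgaaacTCATCTCAttaccctttt
GXYLT1: gtccttcggctTCATCTCAtagccagtcc
KRT80: attagattcatTCATCTCAtttgccagga
PTBP3: ctcaaagtgtcTCATCTCAacttttaaaa
Among the genes named by rule, RGS3 was the only reported miR-126 target printed with an 8-base match (chr9:113597155-113597183, plus strand). EGFL7 (chr9:136672550-136672578, plus strand), GOLPH3 (chr5:32126029-32126057, minus strand) and PLK2 (chr5:58454460-58454488, minus strand) hold a match to bases 2 to 7 with the A, a shorter form added after values had been seen; PLK2 did not pass the test.
RGS3: ccccactgcccCGGTACGAgggggcccaa
EGFL7: agctgagggaaGGTACGAgctccctgctg
GOLPH3: aggattctgctGGTACGAgaggccttcct
PLK2: ggacatgtggtGGTACGAaaacaattccc

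TPM3, which encodes a tropomyosin that binds along actin filaments, differed most: it was 5.86-fold higher with the miR-126 mimic. Behind it came GXYLT1, KRT80 and PTBP3 in the same direction, and RNASE1, SOWAHC, SLC39A6 and CD9 led the lower genes, both among genes whose groups did not overlap and that met the limits given below. Values were transcript abundances scaled to a fixed total in every library (TPM), and differences are on the scale log2(TPM + 1), miR-126 minus miR-143, which understates the change of low genes. A gene passed the test at an adjusted p below 0.05 in limma's two-sided moderated test (Benjamini-Hochberg over 13750 genes), fitted to all 12 libraries with the library number as a block. In all, 1041 genes (7.57%) were higher and 474 (3.45%) lower with the miR-126 mimic, 11.0% of the genes tested. Of these, 158 and 79 had an absolute log2 difference of 1 or more.

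These counts rest on the pairing by number and on the scaling. Without the block, 201 genes were higher (1.46%) and 145 lower (1.05%), 2.52% together. Without miR-143 library 4, 340 were higher (2.47%) and 209 lower (1.52%), 3.99% together, and without library 4 of both the miR-143 and the miR-150 group, 1361 and 716. The counts were 1623 and 632 without the miR-150 group and, without all 4 libraries numbered 3, 33 (0.24%) and 37 (0.269%), 0.509% together. The median gene differed by 0.15, and by 0.066, 0.15 and 0.20 in pairs 2, 3 and 4. With each library centred on its median gene, 605 were higher (4.4%) and 1035 lower (7.53%), 11.9% together, so the share of higher calls went from 68.7% to 36.9%. It was 46.5% after quantile normalization (5.65% of genes higher and 6.5% lower, 12.2% together) and 41.8% after removal of a trend on transcript length (8.36% and 11.6%, 20% together). Medians of lists are therefore to be read against the median of all genes. Counts of list members are calls against 0 in the main scaling, and their balance can change after centring. The background for these counts is the 11.0% of all genes that passed.

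All 6 libraries held endothelial transcripts: 11 of 11 endothelial markers reached 1 TPM in each, with sums from 1092 to 1940 TPM. Of 4 epithelial markers 0 reached 1 TPM in all 6 libraries: EPCAM did in 4 (up to 1.83 TPM), CDH1 and KRT14 stayed under it and KRT5 was at 0. KRT18, a keratin not confined to epithelium, was abundant and is given with the lists. MiR-143 library 4 stood apart from the other 5: across genes, deviation from the gene's mean correlated with transcript length (Spearman's rank correlation) at -0.398 in it and between -0.0084 and 0.289 in them. The number of genes at 1 TPM or more in these 6 lay between 12606, in that library, and 13564. MiR-150 library 4, which enters the main fit, lay farther off, at -0.547 with 12299 genes at 1 TPM or more. It also remained in the fit without miR-143 library 4. TPM keep no read totals, so the depth is unknown.

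Genes were named by difference among those that passed the test, also without miR-143 library 4, with groups that did not overlap and a mean of at least 5 TPM. Without those limits 31 called genes reached the smallest difference of the 14 highest and 18 that of the 14 lowest. Among the 14 highest, 11 were below scrambled RNA with the miR-143 mimic (5.87% of all genes) and 5 were above it with the miR-126 mimic (11.8% of all genes). These reference values share libraries with the choice of the genes and are given as a description. TPM3 (chr1:154155304-154194648) measured 728, 796 and 728 TPM in miR-126 libraries 2, 3 and 4, 117, 162 and 109 TPM in the miR-143 libraries and 619, 769.9 and 653 TPM with scrambled RNA. The miR-126 libraries thus lay within or near the range of the reference, the miR-143 libraries far under both, with no overlap. The difference was 2.55 (SE 0.107, adjusted p = 6.41e-06). Against scrambled RNA it was 0.15 (adjusted p = 0.396) with miR-126 and -2.40 (adjusted p = 1.11e-05) with miR-143. TPM3 transcripts whose 3′ UTR held the printed site (6 transcripts) summed to 629, 657 and 636 TPM with miR-126 and to 97.7, 133 and 96.1 TPM with miR-143. The 17 without it summed to 98.9, 139.7 and 91.8 against 18.8, 29 and 12.8 TPM, so both kinds were lower with miR-143; how kallisto divides reads between near-identical transcripts limits this split.

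GXYLT1 (chr12:42081845-42144879), an enzyme that adds xylose to sugars on Notch and related proteins, measured 45.8, 35.7 and 43.2 TPM with miR-126 and 10.7, 8.75 and 5.40 TPM with miR-143, a difference of 2.23 (SE 0.277, adjusted p = 0.0018). KRT80 (chr12:52168996-52192000), a keratin, measured 8.76, 15.0 and 9.83 against 1.38, 2.34 and 1.32 TPM, a difference of 2.17 (SE 0.187, adjusted p = 2.87e-04), and scrambled RNA lay between at 3.69, 7.87 and 3.65 TPM. KRT80 was both above scrambled RNA with miR-126, by 1.04 (adjusted p = 0.00548), and below it with miR-143, by -1.13 (adjusted p = 0.00476). PTBP3 (chr9:112217716-112333667), an RNA-binding protein of the polypyrimidine tract family, measured 81.3, 84.6 and 79.0 against 25.8, 22.7 and 12.4 TPM, a difference of 2.01 (SE 0.322, adjusted p = 0.00511). None of these 4 genes, TPM3 included, had overlapping groups, and the lowest miR-143 value of each was that of library 4. Without it GXYLT1 differed by 2.08 (adjusted p = 0.017) and PTBP3 by 1.89 (adjusted p = 0.0365). TPM3 then differed by 2.51 (adjusted p = 2.19e-04) and KRT80 by 2.27 (adjusted p = 0.00287).

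The lysosomal amino acid transporter SLC36A1 differed by 1.85, the lysosomal galactosylceramidase GALC by 1.80 and the Golgi membrane protein GOLM1 by 1.44. GALC measured 31.0, 23.3 and 23.6 TPM with miR-126 and 7.23, 7.06 and 5.84 TPM with miR-143, and GOLM1 126, 179 and 116 against 44.7, 70.9 and 40.0 TPM. ASNA1, an ATPase that delivers tail-anchored proteins to the endoplasmic reticulum, measured 129, 136 and 136 against 41.7, 49.1 and 52.8 TPM and had the smallest standard error of these genes (1.47, SE 0.0922, adjusted p = 7.62e-05). The vitamin B6 binding protein PLPBP differed by 1.46 and the neuronal antigen PNMA2 by 1.60 (adjusted p = 0.153 without the block).

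For IL6R, the interleukin-6 receptor, and APOE, the lipid-carrying apolipoprotein, only the miR-126 group differed from scrambled RNA past the threshold. IL6R measured 28.5, 28.2 and 31.1 TPM with miR-126, 10.2, 9.97 and 7.01 TPM with miR-143 and 13.3, 15.9 and 13.6 TPM with scrambled RNA. APOE measured 36.7, 29.7 and 38.7 TPM with miR-126, 9.65, 12.3 and 11.4 TPM with miR-143 and 13.0, 12.3 and 9.03 TPM with scrambled RNA. APOE differed by 1.54 (adjusted p = 6.64e-04) from scrambled RNA with miR-126 and by -0.028 (adjusted p = 0.939) with miR-143. IL6R differed by 1.60 (SE 0.218, adjusted p = 0.00264) between the mimics and APOE by 1.57 (SE 0.181, adjusted p = 0.00129). CENPS-CORT, a read-through of CENPS (1.84), shares exons with CENPS and lost the call in 4 of 6 fits with a library left out, so its value is uncertain. TAF10, a subunit of the general transcription factor TFIID (1.78), shares exonic sequence with ILK, which moved the other way; the authors' counting may divide reads between them, and both values are uncertain.

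Of the 14 genes lowest with the miR-126 mimic, 13 were below scrambled RNA with that mimic (5.11% of all genes), whereas with miR-143 1 was below it and 2 above (7.04% of all genes). RNASE1 (chr14:20801228-20803278), a ribonuclease secreted by endothelium, measured 38.9, 19.0 and 37.2 TPM in miR-126 libraries 2, 3 and 4, 148, 75.3 and 190.4 TPM in the miR-143 libraries and 174, 60.8 and 169.7 TPM with scrambled RNA. Library 3 was the lowest of its group each time, and each miR-126 library lay below the miR-143 library of its number, with differences of -1.90, -1.93 and -2.33 on the log2 scale. The fitted difference was -2.05 (SE 0.136, adjusted p = 9.29e-05), and without the block the adjusted p was 0.0695. SOWAHC (chr2:109614334-109618990), an ankyrin repeat protein, measured 1.59, 2.29 and 1.75 against 10.8, 13.3 and 7.57 TPM, a difference of -1.98 (SE 0.179, adjusted p = 4.00e-04).

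CD9 (chr12:6199715-6238271), a tetraspanin that organises integrins and other proteins in the plasma membrane, was the most abundant gene of this set. It measured 343, 448 and 346 TPM with miR-126, 1100.0, 1434 and 1182 TPM with miR-143 and 999, 1252 and 1062 TPM with scrambled RNA. Its pairs differed by -1.68, -1.68 and -1.77, a narrow range, and the fitted difference was -1.71 (SE 0.0632, adjusted p = 3.96e-06). SLC39A6, a zinc importer, measured 10.9, 16.5 and 12.3 against 51.4, 64.1 and 43.1 TPM, a difference of -1.93 (SE 0.149, adjusted p = 1.71e-04). SLC12A2, the sodium-potassium-chloride cotransporter, differed by -1.41 (adjusted p = 0.12 without the block). SGPP1, which dephosphorylates sphingosine 1-phosphate, differed by -1.69.

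Matrix and adhesion proteins were also in this set. COLGALT1, which adds galactose to collagen, measured 45.8, 47.1 and 49.5 TPM with miR-126, 141, 126 and 141 TPM with miR-143 and 190.0, 176 and 207 TPM with scrambled RNA. Both mimics were below scrambled RNA, by -1.98 (adjusted p = 8.84e-06) and -0.49 (adjusted p = 0.0124), and the mimics differed by -1.50 (SE 0.0987, adjusted p = 9.29e-05). DCBLD2, a neuropilin-like membrane protein, differed by -1.64 and ILK, the integrin-linked kinase, by -1.42. The prion protein gene PRNP measured 77.5, 74.9 and 75.8 against 216, 218 and 201 TPM (-1.47), the co-repressor AES 117, 145 and 105 against 310.2, 371 and 334 TPM (-1.47), and the endocytic protein SH3GL1 61.5, 54.1 and 59.9 against 154, 146 and 171 TPM (-1.41). In these 3 genes no miR-126 library came near the range of the other group.

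AKR1C1 was the exception against scrambled RNA. This aldo-keto reductase measured 5.40, 7.75 and 4.94 TPM with miR-126, 18.4, 15.7 and 23.4 TPM with miR-143 and 5.13, 9.15 and 8.42 TPM with scrambled RNA, so the miR-143 libraries were the ones away from the reference, by 1.25 (adjusted p = 0.00534). It belongs to a family of near-identical genes, which leaves its value uncertain. EGFL7, the secreted endothelial protein whose gene hosts miR-126, measured 375, 250.3 and 364 TPM with miR-126, 719, 761 and 1139 TPM with miR-143 and 645, 505 and 623 TPM with scrambled RNA. It lay below scrambled RNA with miR-126, by -0.85 (adjusted p = 0.00459), and above it with miR-143, by 0.54 (adjusted p = 0.0416).

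Of these 28 genes, 25 also passed without the block and 28 passed in the same direction under each of 3 other scalings. For 27 of them the call was kept in all 6 fits that left out a library. A pass in a fit that belongs to these 6 had been part of the naming rule and so was fixed in advance. The rule had also required groups that did not overlap and the largest differences, which favours passing in the other fits. These counts therefore describe the named genes and are no independent check. Without all libraries numbered 3, 5 of the 14 highest (TPM3, KRT80, TAF10, ASNA1 and GOLM1) and 10 of the 14 lowest passed.

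**Figure D1:**
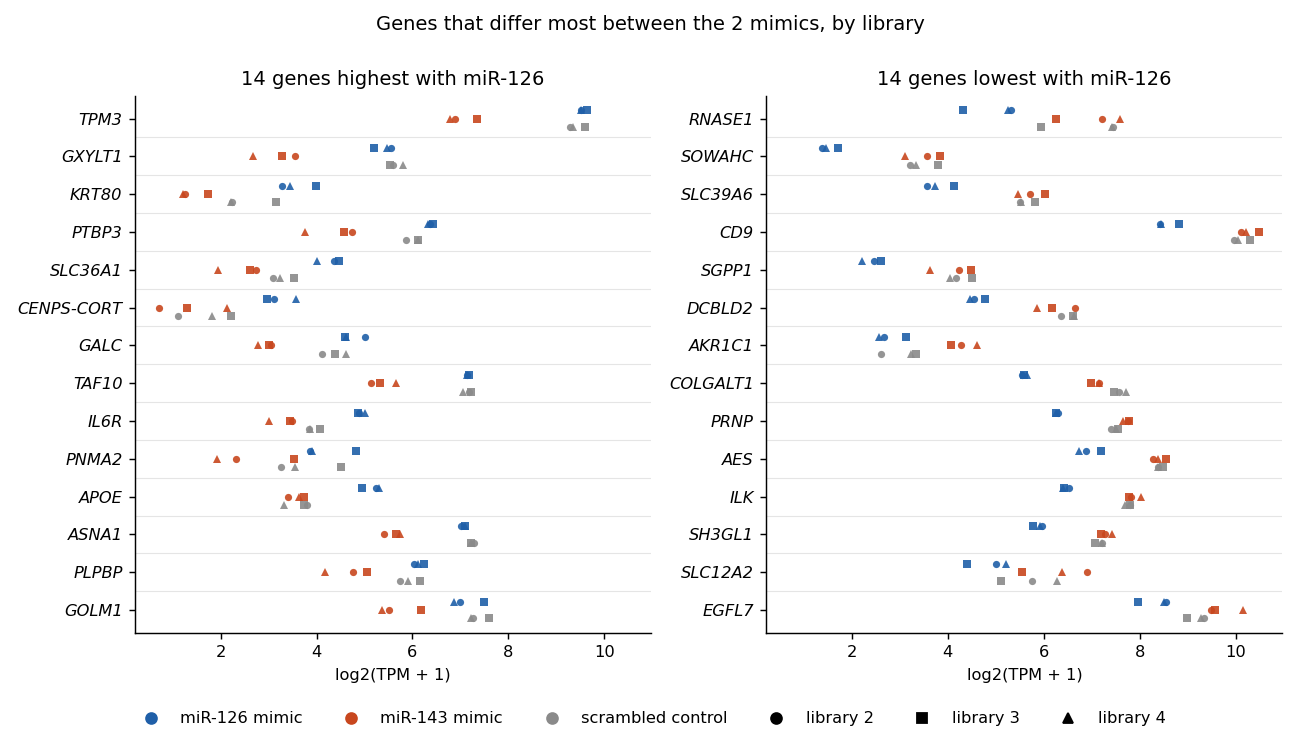
Level of each of the 28 named genes in every library of the miR-126 mimic, the miR-143 mimic and scrambled RNA, on the scale log2(TPM + 1), with a marker shape for each library number. For most genes on the left the miR-143 libraries are the ones away from scrambled RNA, as in TPM3, and for most on the right the miR-126 libraries are, as in CD9.

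Genes with a miR-143-3p match in the 3′ UTR were shifted towards the miR-126 group. Of 12429 tested genes with an annotated 3′ UTR, 1794 (14.4%) held TCATCTC, searched on the sense strand of the longest 3′ UTR. Of these carriers, 301 (16.8%) were higher and 34 (1.90%) lower with the miR-126 mimic, against 6.5% and 4.08% of genes without it. Without the block 5.24% of carriers and 0.987% of other genes were higher. Over all genes with a 3′ UTR, 7.98% were higher and 3.77% lower, 11.7% together. Their median difference was 0.29, against 0.12 without the match, and it was 0.14, 0.28 and 0.45 in pairs 2, 3 and 4 against 0.052, 0.12 and 0.16. Against scrambled RNA the carriers' median was -0.20 with miR-143 and 0.093 with miR-126. With the 8-base match, 605 genes, the median was 0.32 and 21.5% were higher.

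Carriers have longer 3′ UTRs (median 3112 against 1162 bases), and the deviations of miR-143 library 4 moved with transcript length. Within bands of 3′ UTR length, the share called higher was 32.9% with a match and 6.22% without in UTRs of up to 500 bases, 29.7% and 7.68% from 500 to 1000, 24.6% and 7.31% from 1000 to 2000, 16.3% and 5.36% from 2000 to 4000, and 9.17% and 5.03% above 4000 bases. In every band the share was larger with a match. After removal of a trend on transcript length the median of carriers was 0.10 and that of other genes -0.026. Of the 14 highest named genes 9 held the 7-base match, namely TPM3, GXYLT1, KRT80, PTBP3, SLC36A1, GALC, PNMA2, PLPBP and GOLM1, and of the 14 lowest 0 did. No test is attached to these shares, since genes are not replicates.

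The miR-126-3p match is rare. CGGTACG was found in 37 of 12429 3′ UTRs (0.298%), and the median difference of these genes was 0.14, equal at this precision to that of genes without it (0.14), with 2 called higher and 3 lower. A match to bases 2 to 7, GGTACG, was held by 496 genes, of which 6.45% were lower against 3.65% without. Bases 2 to 7 with the A, GGTACGA, occurred in 142 genes, of which 13 (9.15%) were lower and 2 (1.41%) higher, and their median was 0.062.

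GGTAC, the complement of bases 3 to 7 of miR-126-3p, was singled out after values had been seen, in a scan of all 7-letter words over transcripts of the same table. It is a description of these libraries and no independent evidence. GGTAC is common, in 43.1% of 3′ UTRs, and long UTRs hold it more often (median 2489 against 766 bases). Of its 5359 carriers 5.15% were lower against 2.72% without it. In UTRs of up to 500 bases these shares were 13.6% and 3.69%, from 500 to 1000 bases 11.0% and 3.32%, and from 1000 to 2000 bases 7.41% and 1.87%. All 14 of the lowest named genes held it, and 3 of the 14 highest (GXYLT1, KRT80 and GOLM1). SOWAHC held 6 copies, DCBLD2 4 and SGPP1 3. Matches to the other strands, TAATAAT for miR-126-5p and ACTGCAC for miR-143-5p, were held by 2476 and 2259 genes. Of the former 2.63% were lower against 4.05% without, and of the latter 8.19% were higher against 7.94% without.

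**Figure D2:**
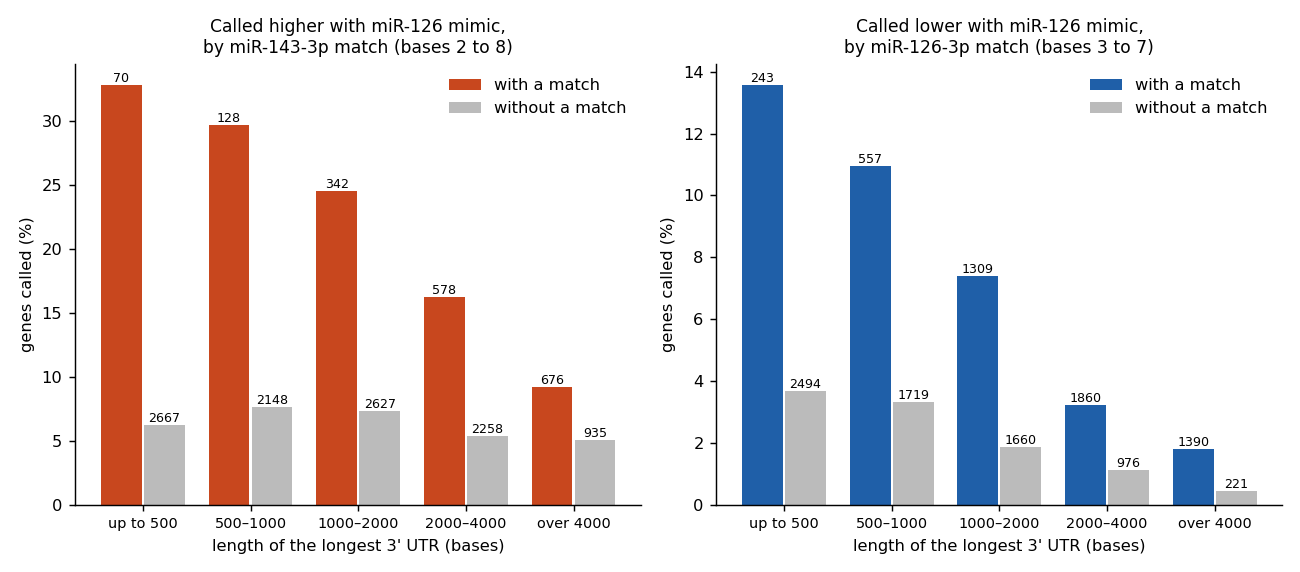
Percent of genes called higher with the miR-126 mimic by presence of a 7-base miR-143-3p match (left), and percent called lower by presence of the word complementary to bases 3 to 7 of miR-126-3p (right), in bands of 3′ UTR length; numbers above bars are genes. The bar with a match is the taller in every band of both panels, from 32.9% against 6.22% on the left to 1.80% against 0.452% in the longest UTRs on the right.

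Among reported targets of miR-143, the miR-126 group was higher in 10 of 24 measured genes and lower in 0, and the median difference was 0.62 against 0.15 for all genes. Without the block 6 were higher and 0 lower, and 0 passed without all libraries numbered 3. The actin regulators of the list were LIMK1, a kinase that inactivates cofilin, and FSCN1, which bundles actin filaments. LIMK1 measured 21.7, 31.2 and 22.4 TPM with miR-126, 12.7, 15.1 and 10.8 TPM with miR-143 and 41.9, 48.1 and 46.5 TPM with scrambled RNA, so both mimics lay below the reference and miR-143 lower (0.90, SE 0.136, adjusted p = 0.00411). FSCN1 measured 159.7, 136 and 195 TPM with miR-126, 102, 86.4 and 100.4 TPM with miR-143 and 156, 138 and 165 TPM with scrambled RNA, and only miR-143 was away from the reference (0.75, SE 0.0786, adjusted p = 8.38e-04). FSCN1 held 0 matches to TCATCTC in its longest 3′ UTR. The ARF GTPase-activating protein ASAP3 measured 15.8, 11.8 and 12.7 against 6.89, 4.12 and 4.17 TPM (1.28, SE 0.149, adjusted p = 0.00137).

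Growth signalling genes came next. HK2, the hexokinase that opens glycolysis, measured 3.94, 5.38 and 3.64 TPM with miR-126 and 1.36, 2.42 and 0.827 TPM with miR-143 (1.10; adjusted p = 0.106 without the block). ERBB3, a receptor of the EGF receptor family, measured 4.04, 3.52 and 1.80 against 0.587, 0.770 and 0.795 TPM (1.22) and the kinase gene PRKCE 37.8, 42.9 and 40.6 against 20.6, 19.8 and 13.4 TPM (1.15). The ETS factor ELK1 differed by 0.73. MDM2 (1.14), the ubiquitin ligase of p53, and KLF5 (1.02), a growth-related transcription factor, passed with the block only. Without miR-143 library 4, PRKCE (adjusted p = 0.0848) and ELK1 (adjusted p = 0.0772) missed the threshold and 8 of the list passed. The most abundant members that did not pass in the first place were CTNND1 (0.63, adjusted p = 0.0978), AKT1 (0.018, adjusted p = 0.925) and CD44 (0.0043, adjusted p = 0.987).

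Of 23 measured miR-126 targets, 4 were lower and 3 higher, with a median of -0.10, and after centring 11 were lower and 2 higher. Without the block 3 were lower and 0 higher, without library 4 of the miR-143 group 4 and 0, and 0 passed without all libraries numbered 3. The list is thus below the median gene, and most of its members did not pass. EGFL7 was the lowest (-1.39, SE 0.147, adjusted p = 8.47e-04). GOLPH3, a Golgi protein that sorts glycosyltransferases, measured 38.6, 36.5 and 37.1 TPM with miR-126, 92.1, 78.7 and 77.7 TPM with miR-143 and 83.8, 83.2 and 82.8 TPM with scrambled RNA (-1.12, SE 0.102, adjusted p = 4.05e-04). ADAM9, a membrane metalloprotease, measured 123, 109.9 and 112 TPM with miR-126, 311, 228 and 198 TPM with miR-143 and 349.7, 305 and 381 TPM with scrambled RNA (-1.07, SE 0.188, adjusted p = 0.0078). RGS3, which ends signals of G protein-coupled receptors, measured 74.8, 53.5 and 92.6 against 113, 70.5 and 132 TPM; its groups overlapped although each pair differed in the same direction (-0.59, -0.39 and -0.51), and without the block its adjusted p was 0.486. PLK2, PIK3R2 and CRK did not pass: the polo-like kinase PLK2 differed by -0.42 (adjusted p = 0.111), the PI3-kinase subunit PIK3R2 by -0.63 (adjusted p = 0.0527) and the adaptor CRK by -0.43 (adjusted p = 0.067).

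SPRED1, an inhibitor of ERK signalling often named as the miR-126 target of endothelium, measured 16.2, 13.5 and 13.9 TPM with miR-126 and 16.7, 19.7 and 7.77 TPM with miR-143. SPRED1, PIK3R2 and CRK fall outside the naming rule and were chosen after their values were seen. The groups of SPRED1 overlapped and the difference was 0.068 (SE 0.311, adjusted p = 0.903). The chemokine gene CXCL12 (0.91), the growth factor VEGFA (0.63) and the lipid transfer protein PITPNC1 (0.53) were higher with miR-126 in the paired fit. Each had overlapping groups and missed the threshold without the block and in 4, 6 and 5 of the 6 fits that left out a library. VEGFA measured 11.7, 13.7 and 7.81 TPM with miR-126, 6.67, 9.48 and 4.49 TPM with miR-143 and 11.3, 14.5 and 9.45 TPM with scrambled RNA. The abundant members DNMT1 and TWF1 also stayed short of the threshold: DNMT1 differed by 0.15 (adjusted p = 0.539) and TWF1 by -0.039 (adjusted p = 0.893). Both target lists were compiled from published reports with results of these data in view, so their counts are not independent evidence of a direction.

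**Figure D3:**
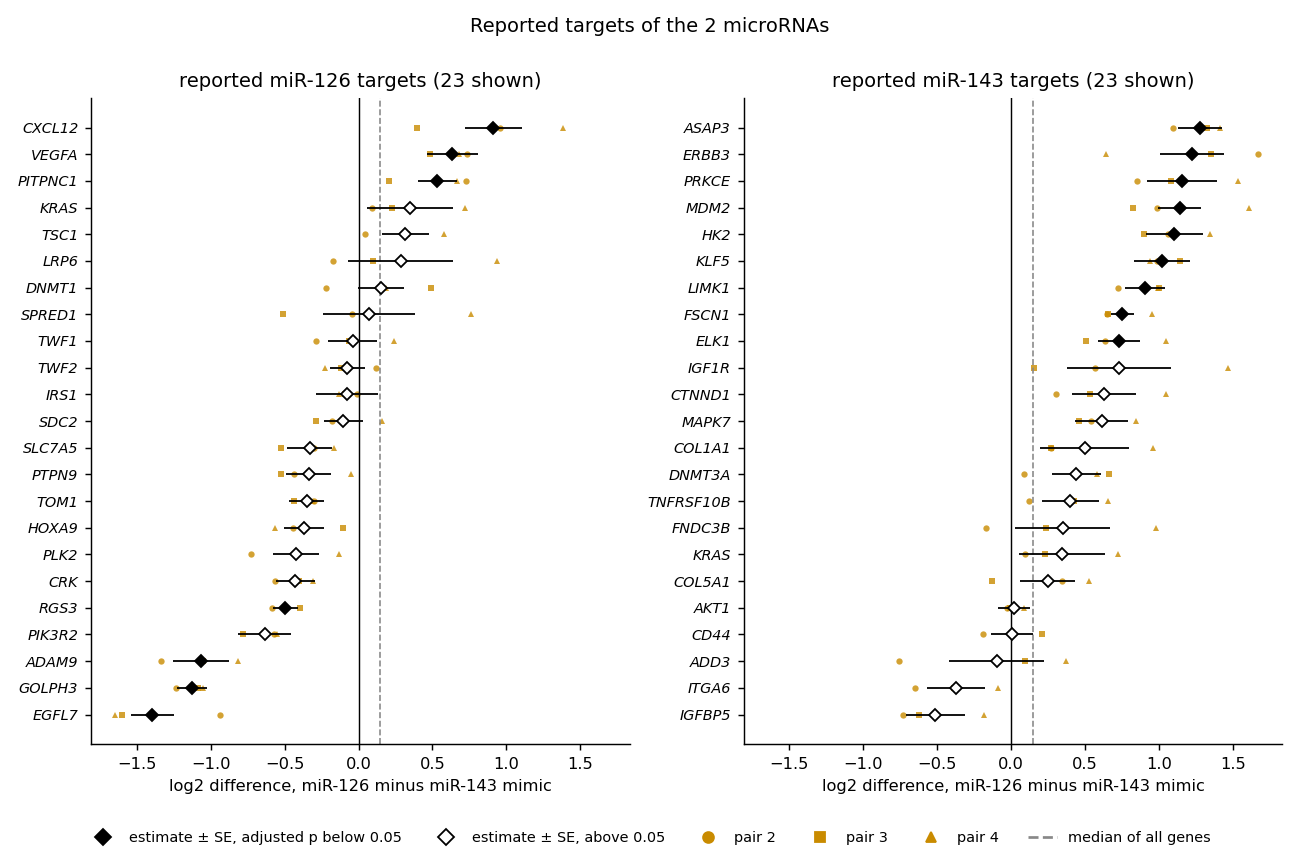
Log2 difference (miR-126 minus miR-143 mimic) of measured reported targets of miR-126 (left, 23 genes) and miR-143 (right, 23 of 24 genes): diamonds are fitted values with SE, filled at an adjusted p below 0.05, and small symbols are the 3 pairs of libraries with the same number. The 9 filled genes on the right are all above 0; on the left 4 are below and 3 above.

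Among the genes named, PNMA2, DCBLD2, ERBB3, MDM2, ARPC1B, TAGLN, NID2, ADAM19, ITGB3, PSMB9, TAP2, ANGPT2, RFNG, CCND1, SPHK1, SPHK2, FEN1, MCM2, TP53I3, PGK1, HSP90B1, XPO5 and KRT18 share exonic sequence with a neighbouring gene in the annotation, and the strand used in counting is not given in the sources used here, so their values are uncertain. Named list members that passed in the paired fit and missed the threshold in at least 1 of the 6 fits that left out a library, besides those marked where they are described, were PRKCE, KLF5, ELK1, PLOD2, ADAM19, PSMB9, TAP2, ANGPT2, NRP2, APLN, PGF, NUMB, RFNG, DKK1, MYC, CXCL2, CXCL5, EDNRB, SPHK1, SPHK2, FOSB, FOSL2, E2F1, MCM5, SLBP, HMGCS1, NSDHL, BNIP3, SLC7A11, PSAT1, HSP90B1 and ACTA2.

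Interferon-stimulated genes, which encode antiviral effectors, were higher with the miR-126 mimic than with the miR-143 mimic in 23 of 44 measured genes and lower in 0, with a median of 0.78. The groups overlapped in every gene of the list, and the difference lay within library numbers. The list's mean log2 level was 5.6, 7.44 and 5.17 in miR-126 libraries 2, 3 and 4, 4.76, 6.64 and 4.39 in the miR-143 libraries and 3.63, 5.46 and 3.51 with scrambled RNA. Library 3 was the highest in each group, by more than the mimics differed, and the list's median difference was 0.75, 0.77 and 0.75 within pairs. In 0 of the 44 genes were the groups free of overlap (25.4% of all genes, 19.2% with the miR-126 libraries above and 6.17% below), and without the block 0 passed; without miR-143 library 4, 11 passed and without all libraries numbered 3, 1.

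BST2, which tethers virus particles to the cell surface, measured 17.5, 155 and 9.998 TPM with miR-126, 2.05, 49.6 and 3.17 TPM with miR-143 and 1.61, 19.6 and 1.14 TPM with scrambled RNA (1.88, SE 0.261, adjusted p = 0.00295). TRIM22, an antiviral ubiquitin ligase, measured 43.3, 201 and 30.7 TPM with miR-126, 13.3, 52.5 and 8.15 TPM with miR-143 and 11.6, 39.5 and 11.6 TPM with scrambled RNA (1.78, SE 0.273, adjusted p = 0.00441). IFIT3, which acts with other IFIT proteins on foreign RNA, measured 64.3, 297 and 49.1 TPM with miR-126, 21.2, 108 and 20.6 TPM with miR-143 and 8.07, 40.4 and 7.14 TPM with scrambled RNA (1.41, SE 0.108, adjusted p = 1.68e-04). In all 3 genes the miR-126 library exceeded the miR-143 library of its number, and library 3 of the miR-143 group exceeded miR-126 libraries 2 and 4. BST2 and TRIM22 did not differ past the threshold between miR-143 and scrambled RNA, at 0.83 (adjusted p = 0.0679) and 0.042 (adjusted p = 0.94). IFIT3 was above scrambled RNA with both mimics, by 2.77 (adjusted p = 3.79e-06) with miR-126 and 1.37 (adjusted p = 1.44e-04) with miR-143. MX2 (1.71), IFI44L (1.54) and MX1 (1.41) passed in the paired fit and lost the call in 4, 4 and 5 of 6 fits with a library left out. Of 17 genes of MHC class I presentation, a system that interferon also raises, 2 were higher (PSMB9 at 0.52, TAP2 at 0.31) and 0 lower. That is 11.8%, near the 11.0% of all genes, and the median was that of all genes (0.15). Without the block 0 of the 17 passed.

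Targets of p53, which hold back division or promote cell death, were higher in 9 of 26 and lower in 0 (median 0.50). CDKN1A, the cyclin-dependent kinase inhibitor p21, measured 225, 394 and 194 TPM with miR-126, 121, 277 and 98.2 TPM with miR-143 and 129, 251 and 101 TPM with scrambled RNA (0.79, SE 0.0942, adjusted p = 0.00151). Against scrambled RNA it differed by 0.0041 (adjusted p = 0.984) with miR-143 and by 0.79 (adjusted p = 6.91e-04) with miR-126. FDXR, a mitochondrial ferredoxin reductase, measured 31.0, 53.2 and 27.5 against 14.8, 26.7 and 14.6 TPM (0.95, SE 0.119, adjusted p = 0.0018), and TP53I3 86, 141 and 71.8 against 43.8, 74.8 and 47.0 TPM (0.82, SE 0.0859, adjusted p = 8.38e-04). MDM2 (1.14), the death receptor FAS (1.12) and BTG2, an inhibitor of division (0.67), completed the named members. In BTG2 the libraries of each group lay close together, and in the other 5 genes library 3 was well above the rest of its group. BTG2 alone passed without the block, 8 passed without miR-143 library 4, and 1 (CDKN1A) without all libraries numbered 3. FAS shares exonic sequence with ACTA2, and its value is uncertain.

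**Figure D4:**
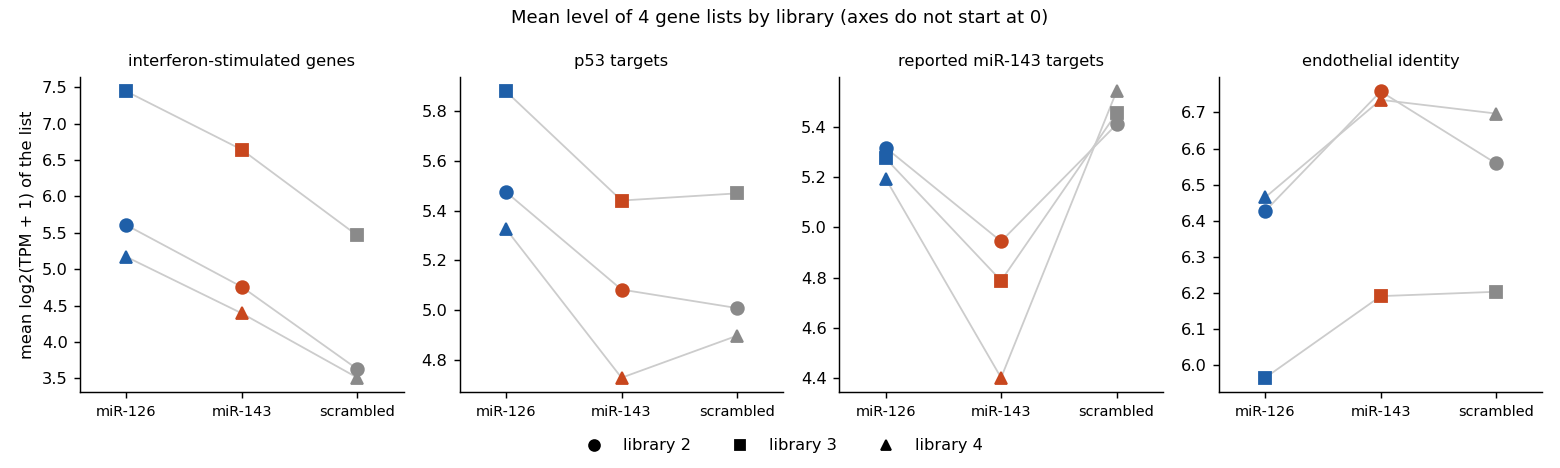
Mean log2(TPM + 1) of 4 gene lists in each library of the miR-126 mimic, the miR-143 mimic and scrambled RNA, with grey lines joining libraries of the same number (axes do not start at 0). For interferon-stimulated genes library 3 lies above the other libraries of its group, and every miR-126 library lies above the miR-143 library of its number.

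Immediate early genes and regulators of MAPK signalling were higher in 10 of 32 and lower in 3 (median 0.34). The early response factors EGR1 and FOS were among the higher ones. EGR1 measured 13.1, 9.47 and 7.10 TPM with miR-126 and 5.53, 2.92 and 2.13 TPM with miR-143 (1.30, SE 0.219, adjusted p = 0.00644), and FOS 7.21, 6.24 and 5.97 against 3.55, 2.90 and 1.73 TPM (1.03, SE 0.164, adjusted p = 0.00499). FOSB (0.87) and FOSL2 (0.84) differed in the same direction. KLF2 and KLF4, transcription factors that endothelium raises under laminar flow, were lower with miR-126. KLF2 measured 48.1, 36.0 and 54.3 TPM with miR-126, 86.7, 91.8 and 104 TPM with miR-143 and 82.1, 57.8 and 68.7 TPM with scrambled RNA (-1.03, SE 0.123, adjusted p = 0.00151), and KLF4 13.4, 19.0 and 15.5 TPM with miR-126, 31.5, 37.2 and 30.4 TPM with miR-143 and 25.6, 23.6 and 29.6 TPM with scrambled RNA (-1.01, SE 0.145, adjusted p = 0.00326). Only KLF2 and KLF4 of this list passed without the block, and without miR-143 library 4 the counts were 2 higher and 3 lower.

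Genes of endothelial identity were lower with the miR-126 mimic in 6 of 25 and higher in 0, with a median of -0.22. Besides EGFL7 these were SOX17, an arterial transcription factor (6.65, 5.13 and 7.73 against 14.7, 10.3 and 22.8 TPM, difference -1.12), THBD, the anticoagulant receptor thrombomodulin (45.1, 85.4 and 39.3 against 96.0, 139.5 and 80.4 TPM, -0.93), and PLVAP, which forms the diaphragms of fenestrae (19.3, 15.6 and 23.4 against 36.2, 31.9 and 41.8 TPM, -0.89). The adhesion receptor CLEC14A (-0.65) and the protein C receptor PROCR (-0.47) completed the 6. All 6 passed without miR-143 library 4, EGFL7 and PROCR passed without the block, and 0 without all libraries numbered 3. Of the 11 general endothelial markers 0 passed. FLT1, TEK, TIE1, ESAM and NOS3 were lower with miR-126 in every pair (differences of -0.55, -0.35, -0.30, -0.20 and -0.35; lowest adjusted p = 0.0744), CDH5 was higher in every pair (0.25), and the other 5 went both ways. PECAM1 measured 474, 325 and 494 TPM against 636, 315 and 373 TPM, and CDH5 380, 262 and 398 against 366, 216 and 296 TPM.

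Receptors and ligands of vessel growth did not move as a block. Of 21 VEGF and angiopoietin genes 4 were higher and 1 lower, with APLN, the ligand apelin, at 0.54 (256, 251 and 309 against 169.7, 199 and 188 TPM), the TIE2 ligand ANGPT2 at 0.97, the receptor NRP2 at 0.81 and VEGFA, and with PGF lower (-0.48). Without the block 1 (APLN) passed, and without miR-143 library 4, 0 did. After centring 3 of these genes were higher and 3 lower. Of 21 NOTCH genes 3 were higher, GXYLT1, the endocytic adaptor NUMB (0.70) and the fringe enzyme RFNG (0.57), of which NUMB missed the threshold without the block. That is 14.3%, near the 11.0% of all genes, and the median of the list (0.17) was near that of all genes (0.15). After removal of the trend on transcript length 3 were higher and 4 lower. Of 23 WNT and Norrin genes 2 were higher and 3 lower (21.7%), and after centring 1 was higher and 5 lower. CTNNB1, which encodes beta-catenin, measured 185 ± 23.3 TPM with miR-126, 374 ± 73.5 TPM with miR-143 and 348 ± 69.4 TPM with scrambled RNA (SD, n = 3 each), a difference of -1.0 (SE 0.0893, adjusted p = 3.73e-04). The WNT antagonist DKK1 (-0.89) and the destruction complex scaffold AXIN1 (-0.82) were lower too, and the WNT target CCND1, cyclin D1, was higher (56.5, 75.8 and 60.9 against 25.9, 41.6 and 22.5 TPM, 1.12, SE 0.165, adjusted p = 0.0036), as was MYC (0.49). Without the block the 3 lower genes passed and the 2 higher did not.

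Of 20 genes of leukocyte adhesion and chemokines 1 was higher (CXCL12) and 3 lower, against 11.0% of all genes in either direction. CCL2, which draws monocytes, measured 31.8, 39.3 and 26.5 TPM with miR-126, 53.2, 78.4 and 65.3 TPM with miR-143 and 51.9, 61.7 and 50.6 TPM with scrambled RNA (-0.99, SE 0.109, adjusted p = 0.00107). CXCL2 (-1.07) and CXCL5 (-0.68) were the other lower ones, and CCL2 alone passed without the block. Of 16 genes of sphingosine and endothelin signalling 2 were higher and 2 lower. SPHK1 (0.83) and SPHK2 (0.62), which make sphingosine 1-phosphate, were higher, and SGPP1, which breaks it down, was lower along with the endothelin receptor EDNRB (-0.97). SPHK1 measured 26.8, 63.1 and 27.7 against 13.7, 27.9 and 20.4 TPM and SGPP1 4.52, 5.08 and 3.61 against 17.8, 21.3 and 11.4 TPM. SGPP1 alone of these passed without the block.

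Matrix and adhesion lists had more members lower than higher. Of 48 genes of extracellular matrix and proteases 11 were lower and 3 higher (median -0.073), 6 and 0 without the block, and 18 and 1 after centring. MMP14, a membrane-anchored collagenase, measured 76.8, 90.3 and 67.6 TPM with miR-126, 161, 173 and 142 TPM with miR-143 and 304, 311 and 327 TPM with scrambled RNA. Both mimics were below the reference and miR-126 the lower (-1.02, SE 0.119, adjusted p = 0.00136). PLOD2, a collagen lysyl hydroxylase (-1.02), the metalloprotease ADAM19 (-1.02) and the basement membrane protein NID2 (-1.05) followed, besides COLGALT1 and ADAM9. Markers of fibroblasts and pericytes, which also make matrix, reached 1 TPM in all 6 libraries in 5 of 9, summed to 51.3 to 71.8 TPM with miR-126 and 39.7 to 58.2 TPM with miR-143, and DCN was at 0 in 3 of the 6; their part in these differences was not tested. In bulk RNA, fewer cells of a type and less RNA per cell cannot be told apart. Of a list of 15 such markers 9 could be tested, and 1 was higher (ACTA2, 0.93, which shares exonic sequence with FAS).

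Of 31 integrin and focal adhesion genes 5 were lower and 2 higher, 2 and 0 without the block. ITGA3, the alpha 3 subunit, measured 148, 182 and 151 against 292, 250.2 and 265 TPM (-0.75, SE 0.114, adjusted p = 0.00434), and ITGB4 differed by -0.80. ITGAV, the alpha V subunit, had the largest difference, -1.56, and lost the call in each of the 6 fits with a library left out, as did its partner ITGB3 (1.16) and TNS3 (0.75). Of 28 TGF-beta and mesenchymal genes 7 were lower and 1 higher, 3 and 0 without the block. The repressor SNAI1 measured 8.02, 6.86 and 7.31 against 15.8, 14.3 and 16.9 TPM (-0.99, SE 0.116, adjusted p = 0.00139) and vimentin, VIM, 1608, 1781 and 1712 against 2199, 2609 and 2495 TPM (-0.51, SE 0.0568, adjusted p = 0.00107). S100A4 (-1.48), CDH2 (-0.86) and SMAD7 (-0.58) were lower in the paired fit, missing the threshold in 3, 6 and 6 of the fits that left out a library.

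Of 48 actin and contractility genes 9 were lower and 5 higher (median -0.013; 4 and 3 without the block). TPM3, LIMK1, FSCN1 and the actin-binding protein TAGLN (0.80) were on the higher side. RHOB, a small GTPase of endosomes, was the lowest member at 62.8, 56.5 and 63.3 TPM with miR-126, 141, 145 and 153 TPM with miR-143 and 128, 106 and 129 TPM with scrambled RNA (-1.25, SE 0.0893, adjusted p = 1.31e-04). ARPC1B, a subunit of the ARP2/3 complex that branches filaments, measured 198, 219.9 and 215 against 344, 370.4 and 423 TPM (-0.84, SE 0.0673, adjusted p = 2.08e-04). TAGLN measured 13.3, 61.1 and 11.4 against 6.79, 37.9 and 5.83 TPM, with library 3 far above the others of both groups and an adjusted p of 0.718 without the block.

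Of 33 genes of glycolysis and the hypoxia response 5 were higher and 2 lower (21.2%, against 11.0% of all genes), and after centring 4 were higher and 4 lower. PGK1, phosphoglycerate kinase, measured 374, 420.3 and 378 TPM with miR-126, 207, 235 and 173 TPM with miR-143 and 348, 409.7 and 365 TPM with scrambled RNA (0.94, SE 0.0881, adjusted p = 5.01e-04), and the glucose transporter SLC2A3 50.3, 66.8 and 50.5 TPM with miR-126, 28.8, 32.8 and 21.3 TPM with miR-143 and 32.3, 37.0 and 32.5 TPM with scrambled RNA (1.0, SE 0.146, adjusted p = 0.00351). ENO2 (0.74), BNIP3 (0.39) and HK2 were higher too. The hexokinase HK1 was lower (-0.57), opposite to HK2. Without the block PGK1 and SLC2A3 passed. Of 28 genes of protein folding and amino acid stress 5 were higher and 3 lower (28.6%), and after centring 2 were higher and 5 lower. PHGDH, the first enzyme of serine synthesis, measured 90.1, 89.5 and 85.9 against 46.0, 38.7 and 35.5 TPM (1.13, SE 0.136, adjusted p = 0.00157), PSAT1, of the same pathway, differed by 0.92 and SHMT2, which uses serine, by 0.48. XBP1 (-0.61) and HSP90B1 (-0.37), of the endoplasmic reticulum, and the cystine transporter SLC7A11 (-1.20) were lower. Without the block PHGDH and SHMT2 remained higher and XBP1 and HSP90B1 lower.

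Cholesterol synthesis had 5 of 27 lower (18.5%, against 3.45% of all genes) and 0 higher (1 lower without the block, 9 lower after centring). IDI1, which isomerises isopentenyl diphosphate, measured 87.9, 87.4 and 91.1 TPM with miR-126, 169.8, 154 and 175 TPM with miR-143 and 108, 103 and 123 TPM with scrambled RNA (-0.89, SE 0.0861, adjusted p = 5.41e-04). The miR-143 libraries all lay above the scrambled libraries and the miR-126 libraries all below them. HMGCS1 (-0.65), FDPS (-0.62) and NSDHL (-0.28) were also lower.

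Cell cycle genes depended on the scaling. Of 30 S phase genes 3 were higher and 2 lower, with MCM2 of the replicative helicase at 135, 102 and 128 against 94.7, 66.7 and 84.6 TPM (0.57, SE 0.0818, adjusted p = 0.00335) and the flap endonuclease FEN1 at 102, 98.2 and 112 against 179, 170.2 and 204 TPM (-0.82, SE 0.0953, adjusted p = 0.00136). E2F1 (0.48) and MCM5 (0.48) were also higher, and SLBP (-0.31) lower, with FEN1 alone passing without the block. The S phase genes that passed made up 16.7% of their list, against 11.0% of all genes, and after centring 1 was higher and 3 lower. Of 30 G2 and M phase genes 4 were higher and 0 lower, AURKB (0.47), CDC20 (0.44), CDC25B (0.42) and CDK1 (0.42), but the median of the list was -0.026, opposite in sign to its calls, and after centring 0 were higher and 9 lower. CDC20 alone passed without the block.

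In the insulin-like growth factor and PI3K list 0 of 26 passed in either direction, with a median of 0.063, and after centring 4 were lower. Of 16 genes of microRNA processing 1 was higher, XPO5, the exporter of precursors (0.55), which lost the call without the block and in each of the 6 fits with a library left out. Markers of other cells gave 1 lower of 5 for epithelium (KRT18, 492, 539 and 498 against 697, 905 and 735 TPM, -0.60), 0 of 2 for leukocytes and 0 of 4 for lymphatic endothelium. Of 13 mitochondrially encoded messages 0 passed.

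**Figure D5:**
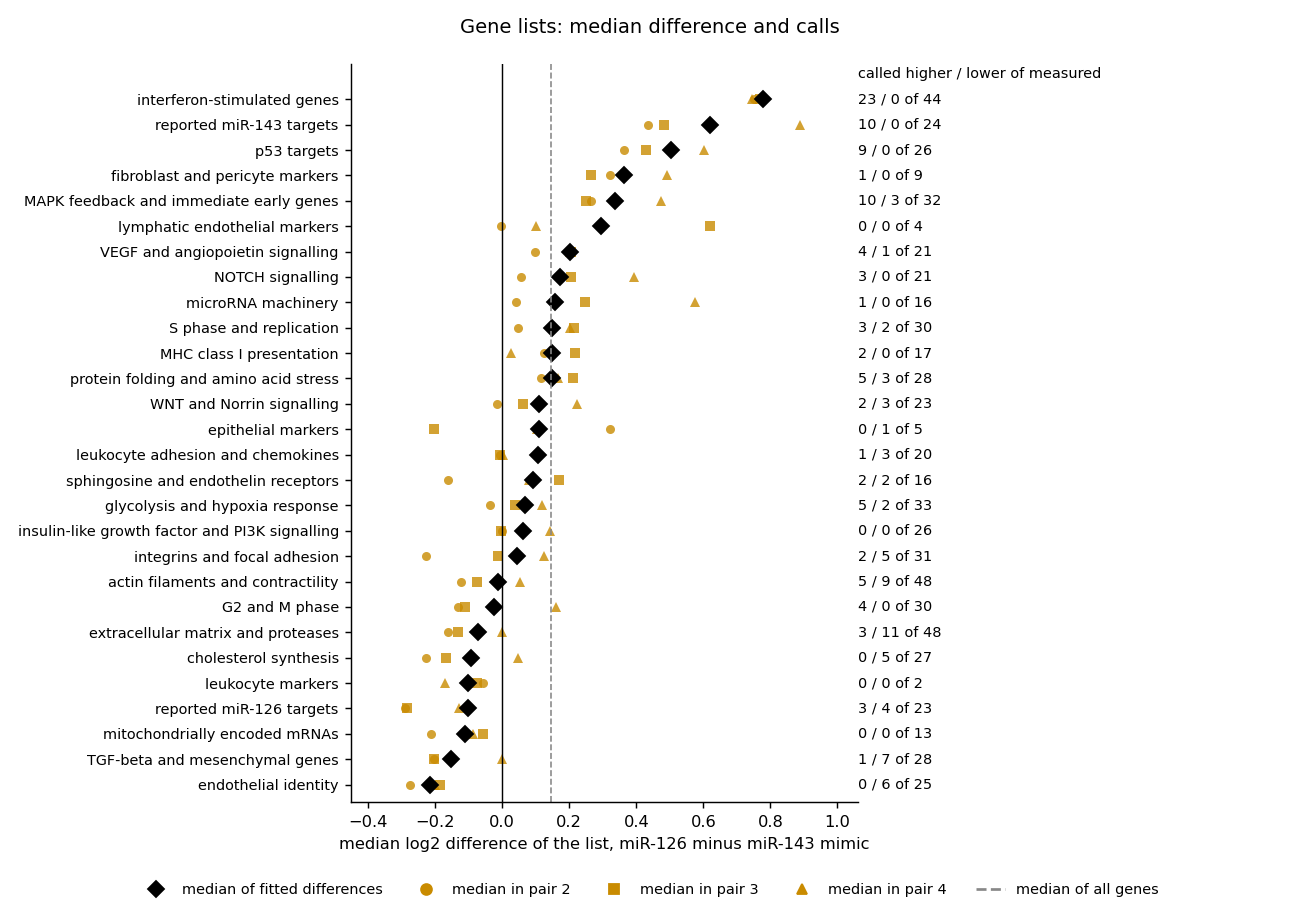
Median log2 difference (miR-126 minus miR-143 mimic) of each of 28 gene lists: diamonds are medians of the fitted differences, small symbols the medians within each pair of same-numbered libraries, and the dashed line the median of all genes (0.15). Interferon-stimulated genes (0.78) and reported miR-143 targets (0.62) lie farthest above that line and endothelial identity genes (-0.22) farthest below.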

How the data were processed

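RNA-seq was read from a table of 187626 transcripts in 12 libraries, 3 in each of 4 groups. The deposited values are TPM estimated by the authors with kallisto, per the submitters' processing notes, which also name FastQC, sleuth and the build GRCh38 (hg38); their versions are not known here. TPM sum to 1000000 in every library, so depth is unknown and no counting error can be given. TPM were summed per gene symbol (36433 symbols, of which 677 of those tested cover more than 1 Ensembl gene; 171 transcripts had no gene), and 13750 genes with at least 1 TPM in 3 libraries were tested.

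Differences of log2(TPM + 1) were fitted with limma 3.58.1 (R 4.3.3; moderated test with trend, two-sided, Benjamini-Hochberg adjustment) on all 12 libraries with group and library number as terms. The numbers come from the labels, which give them no meaning. Across the paired libraries of the miR-126 and miR-143 groups, residuals correlated across genes at 0.32, 0.66 and 0.37, and the numbers were used as pairs. Between libraries numbered 2 and 4 the correlations were 0.15 and 0.16. Between library 3 and another number they lay from -0.50 to -0.34, so library 3 stood most apart. The fit was tested on simulated data for this comparison (13750 genes): of 100 genes changed by 1 on the log2 scale it called 76, of 100 changed by 2 it called 96, all in the right direction, with 13 false calls. The simulated noise was independent, with the same spread in every library and no trend on transcript length. Only genes with a mean level above about 5 TPM were changed. The result therefore shows that the fit works in that setting and gives no error rate for these libraries. 3′ UTRs were taken from GENCODE 29 (GRCh38; 90.55% of transcripts found, 12429 tested genes with a 3′ UTR), the longest protein-coding 3′ UTR of each gene. Figures were drawn with matplotlib 3.10.9.

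Genes were named by rule: the 14 highest and 14 lowest among genes past an adjusted p of 0.05 with groups that do not overlap, a mean of at least 5 TPM and the call kept without miR-143 library 4; all called reported targets and the 3 most abundant others; and up to 6 called members of each other list. The members and lists were chosen with earlier results of these data known. Counts cover all list members; values of some members are not reported here. Alternatives were another pseudocount, filter or scaling, no block, fewer groups, and leaving out libraries.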

Additional observations from a re-analysis of the deposited data

How the results depend on the processing

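The count of genes that passed (1515) was 346 without the replicate block, 187 without it in the 6 libraries alone, 2749 after removal of the trend on transcript length and 70 without all libraries numbered 3. Leaving out 1 library gave 549 to 841, leaving out the miR-143 and miR-150 libraries numbered 4 gave 2077, and leaving out the miR-150 group gave 2255. The cause of these shifts was not tested; fits with fewer libraries also have fewer degrees of freedom.

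List values are the list's median difference minus that of all genes. They were recomputed for both target lists and for interferon, p53, MAPK, matrix, TGF-beta, endothelial identity, actin and integrin genes. None of these changed sign. Medians of the other lists were not recomputed, and some lay close to that of all genes, such as MHC class I presentation (0.0019) and S phase (0.0029). Reported miR-126 targets (-0.25) gave -0.33 after quantile normalization, -0.35 after removal of the length trend, -0.41 without the miR-143 and miR-150 libraries numbered 4, -0.39 without all libraries numbered 4, and -0.34 to -0.22 without 1 library. In the same setting without the miR-143 and miR-150 libraries numbered 4, miR-143 targets (0.47) gave 0.26, p53 targets (0.36) 0.27, immediate early and MAPK genes (0.19) 0.093, and integrins (-0.10) -0.23. Without all libraries numbered 4, the last 3 gave 0.29, 0.097 and -0.23, and endothelial identity genes (-0.36) gave -0.32; without all numbered 3 the latter gave -0.43. Quantile normalization gave 0.71 for interferon-stimulated genes (0.63), -0.15 for matrix genes (-0.22), -0.26 for endothelial identity and -0.047 for actin genes (-0.16). Removal of the length trend gave 0.28 for p53 targets, and a filter at 5 TPM gave -0.12 for actin genes. Without 1 library the ranges were 0.35 to 0.54 for miR-143 targets, 0.58 to 0.69 for interferon-stimulated genes, 0.29 to 0.39 for p53 targets, 0.0997 to 0.21 for immediate early and MAPK genes, -0.23 to -0.19 for matrix genes, -0.41 to -0.33 for endothelial identity, -0.21 to -0.11 for actin genes and -0.20 to -0.064 for integrins. Carriers of the miR-143-3p 7-base match (0.17 above other genes) gave 0.10 without the miR-143 and miR-150 libraries numbered 4 and 0.12 to 0.22 without 1 library. Carriers of the miR-126-3p 7-base match (-0.0048 against other genes) gave -0.17 without the miR-143 and miR-150 libraries numbered 4, and -0.11 to -0.0022 without 1 library. The 8-base match, held by only 13 genes, gave 0.10.

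For the 136 named genes under 21 settings, 2317 of 2853 values were counted as the same, 528 as weaker and 8 as stronger. These counts do not cover a change of sign in genes short of the threshold. DNMT1, which did not pass, kept its sign in 1 of the 3 other scalings. Low genes are limited by an unknown depth.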
